A study of Mus musculus with 12 samples.

Results

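The location by housing interaction asks, gene by gene, whether the difference between specific pathogen-free (SPF) and germ-free (GF) mice is the same in non-endothelial stromal cells (SCs) of 2 kinds of lymph node. It was computed from all 12 RNA-seq libraries of the series, which form 4 groups of 3: gut-draining mesenteric nodes (mLN) of SPF mice, mLN of GF mice, skin-draining peripheral nodes (pLN) of SPF mice and pLN of GF mice. All mice were BALB/c, with no knockout, transgene or treatment. The SPF mice carried the CD90.1 allele and were bred at another institute than the one that generated the GF mice. According to the paper, the GF mice were kept at either institute. The age ranges of both housings overlap without being identical, so that housing cannot be told apart from colony, CD90 allele or age. The cells had been sorted as CD45-CD24-CD31-gp38+, where gp38 is podoplanin (Pdpn), and CD31 marks the endothelium that the gate removes. One label field of the pLN libraries repeats the mesenteric name, and the titles, which say pLN, were followed. The labels and methods do not say whether the libraries of a group came from separate mice, so that all p-values measure the spread between libraries.

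Lymph node SCs build the scaffold on which lymphocytes meet antigen. In the T zone, fibroblastic reticular cells (FRCs) secrete the chemokines Ccl19 and Ccl21, whereas CD34+ SCs sit around larger vessels and in the capsule and make much extracellular matrix. The mLN drain the gut with its dense microbiota and the pLN drain the skin, so that colonization reaches the SCs of both nodes by different routes.

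Values were RPKM, read counts scaled to exon length and to the mapped reads of each library. For each gene the SPF minus GF difference of log2(RPKM + 1) in pLN was subtracted from that in mLN. A positive interaction therefore means that SPF housing went with a higher level, relative to GF, in mLN than in pLN, and a negative one the opposite. Of 10253 genes, 9764 reached 1 RPKM in at least 3 libraries, 6 of these were set aside because their values stand on 2 scales, as described at the end, and 9758 were tested with limma. Adjusted p-values are Benjamini-Hochberg values over these 9758 genes, and all ± values are standard errors unless named otherwise.

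The libraries held between 4623211 (GF pLN replicate 3) and 14090548 (GF mLN replicate 2) reads in the listed genes, and within-group correlations across genes ran from 0.973 to 0.994. The sorted identity was checked first. Pdpn stood between 53.9 and 80.5 RPKM in every library, the endothelial gene Cdh5 reached at most 0.306 RPKM, Pecam1, the gene of CD31, at most 1.58 RPKM, and the lymphatic gene Prox1 at most 0.204 RPKM. The 11 blood endothelial markers summed to 77.3 to 102 RPKM in mLN and 168 to 229 RPKM in pLN, mostly through Plvap (up to 194 RPKM) and Tek (up to 84.8 RPKM). The 5 leukocyte markers in the table, of 14 listed, summed to between 5.24 and 16.6 RPKM. SC subset markers did move with the groups. The summed level of 19 CD34+ SC markers was 16518 to 19682 RPKM in SPF pLN and 8600 to 13354 RPKM in GF pLN, against 25070 to 25164 in SPF mLN and 21058 to 22792 in GF mLN. The summed level of 15 T zone FRC markers was 9726 to 11216 RPKM in SPF pLN and 11623 to 15384 RPKM in GF pLN, and 724 to 1042 and 979 to 1600 RPKM in SPF and GF mLN. Ccl21a alone reached 6962 RPKM in this sum. Over the 15 genes the median SPF minus GF difference was -0.13 in pLN and -0.38 in mLN on the log2 scale. In bulk RNA, fewer cells of a subset and less RNA per cell cannot be told apart, and the part of these shifts in the interactions below was not tested. Of 13 perivascular and smooth muscle markers, 11 were in the table, and their summed level was 66.3 to 98.4 RPKM in SPF mLN, 78.6 to 199.8 RPKM in GF mLN, 719 to 725 RPKM in SPF pLN and 719.8 to 937 RPKM in GF pLN. Their median interaction was -0.41, with 0 called and 2 at an unadjusted p under 0.05, beside 9.62% of all genes tested. By the adjusted p, 2 of them fell by at least 2-fold in SPF mLN, beside 0.482% of all genes. In pLN 0 were called by housing, beside 10.8% of all genes, at a median difference of -0.25. The part of these markers was not tested either.

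With 3 libraries per group, few genes were called as responding to housing differently in the 2 nodes. With an adjusted p under 0.05, 27 of the 9758 genes, 0.277%, had an interaction, 13 positive (0.133%) and 14 negative (0.143%). Of these, 21 genes, 0.215%, also differed by at least 2-fold between the nodes, 9 positive (0.0922%) and 12 negative (0.123%). By comparison, the housing difference itself passed the same adjusted p for 4.54% of genes in mLN and 10.8% in pLN. These shares were not measured with equal precision. The interaction had a larger standard error than either housing difference, for example 0.16 against 0.11 for Nkx2-3. Across all genes tested the median interaction was 0.08 on the log2 scale, 93.1% of genes lay within 0.5 of 0, and 939 genes had an unadjusted p under 0.05, 661 of them positive and 278 negative, which is 9.62% of all. The number of calls rested on single libraries: it fell from 27 to 14 without replicate 1 of SPF mLN, to 12 without replicate 3 of SPF mLN or of SPF pLN, to 15 and 10 without replicates 1 and 3 of GF mLN, and to 17 without replicate 3 of GF pLN, and rose to 56 without replicate 2 of GF pLN. With the 2-fold threshold it went from 21 to 12 without replicate 3 of SPF mLN or of SPF pLN, to 10 without replicate 3 of GF mLN and to 36 without replicate 2 of GF pLN. After rescaling the libraries by their median ratio, 33 genes passed, 10 positive and 23 negative, and the genes that also passed the 2-fold threshold split into 7 positive and 19 negative. In a fit chosen after seeing the data, in which the mLN and pLN libraries of a housing that carry the same replicate number form a block, 74 genes passed, 0.758%, among them all 27.

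**Figure D1:**
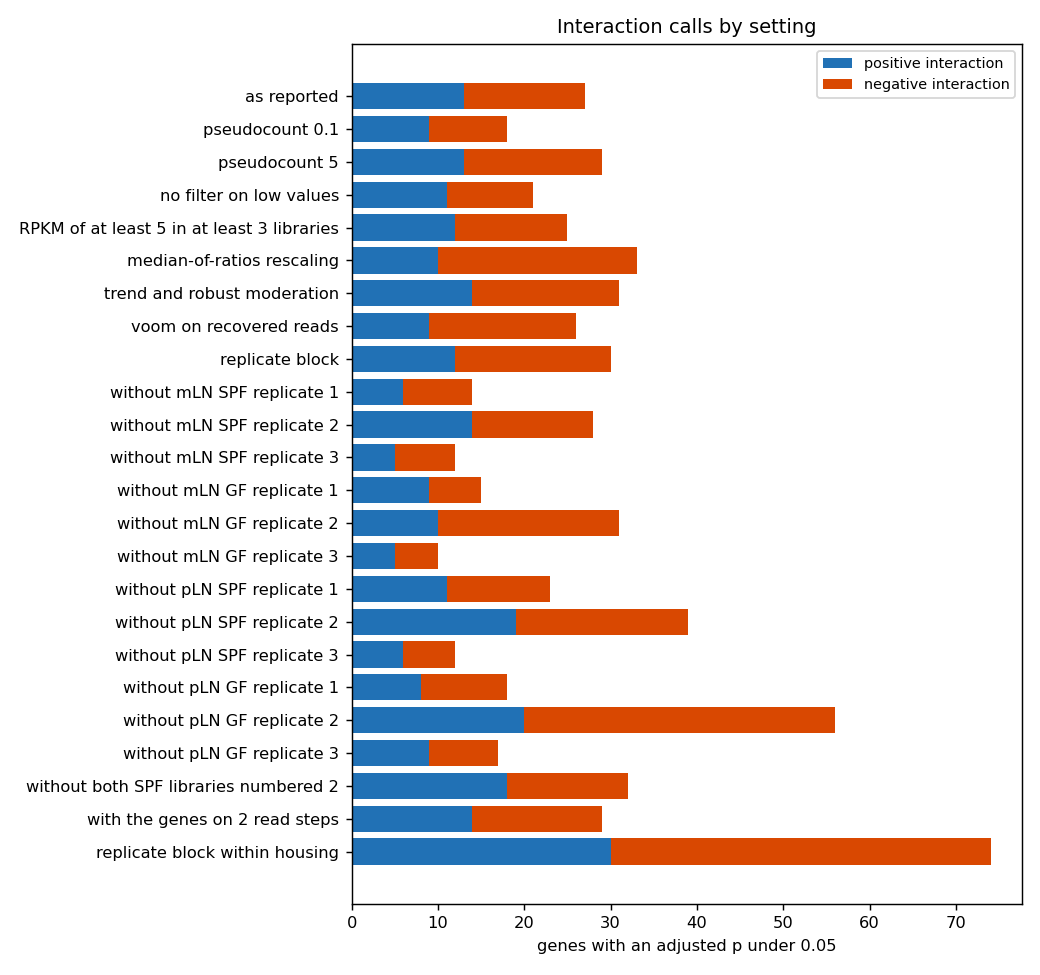
Number of genes with an interaction at an adjusted p under 0.05 (horizontal axis) under each setting (vertical axis), with positive interactions in blue and negative ones in orange. The setting reported in the text gives 27 genes, and the counts run from 10 without GF mLN replicate 3 to 56 without GF pLN replicate 2 on leaving out a library, and to 74 with both nodes of a housing and replicate number as a block.

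The 27 genes fell into 2 patterns. In 18 of them the larger housing difference was in pLN, and in 9 it was in mLN. In 20 of the 27 the SPF minus GF difference had opposite signs in the 2 nodes, compared with 32.3% of all genes tested. SPF and GF libraries of pLN did not overlap in 23 of the 27, and those of mLN did not in 16, against 27.2% and 25.9% of all genes tested. Because the genes were picked on the difference of these same values, the counts describe them and test nothing further. In 8 genes, C7, Fbln1, Gpnmb, Trf, St3gal5, Il34, Ctgf and Slc10a6, the interaction stayed under an adjusted p of 0.05 in every one of the 23 other settings run, while 19 lost the call in at least 1, and none of the 27 changed sign in any.

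**Figure D2:**
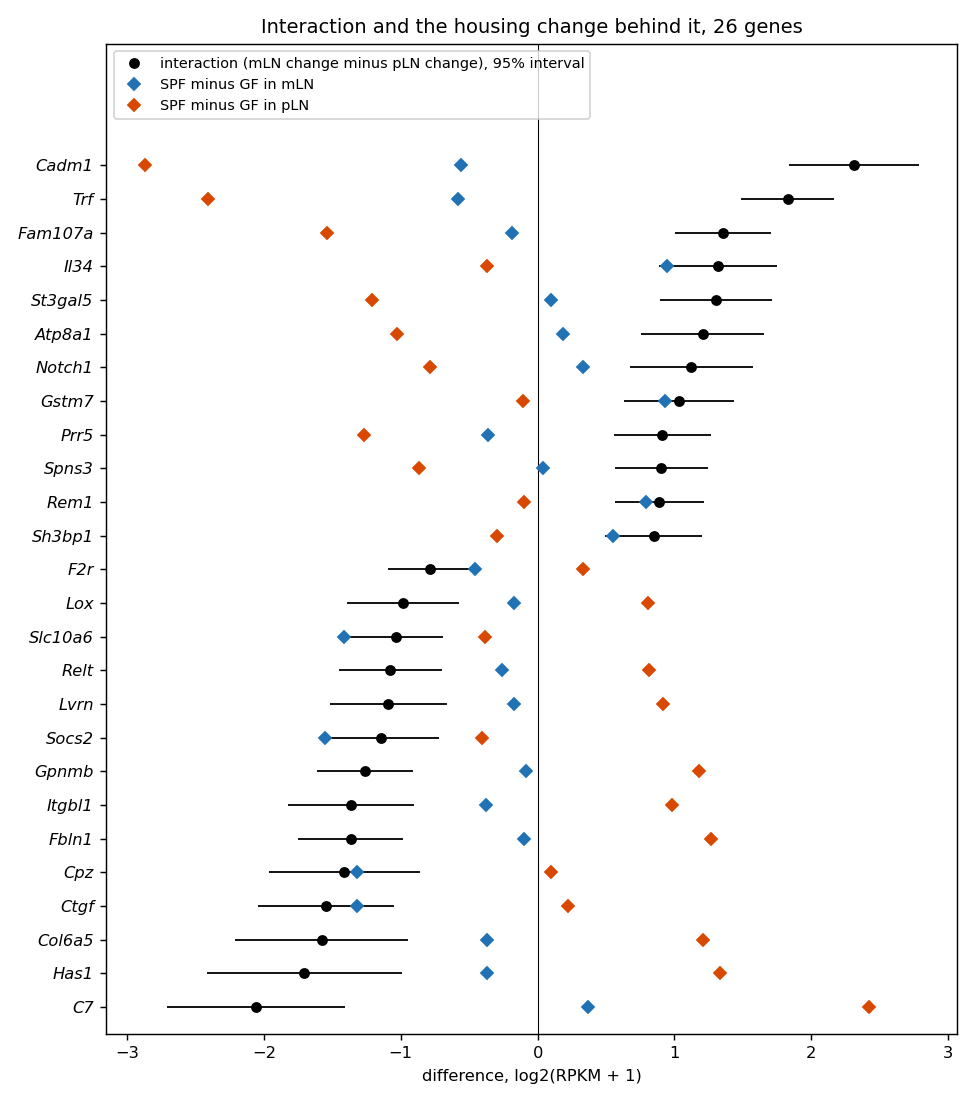
Interaction of 26 of the 27 genes (black points, with 95% intervals) and the SPF minus GF difference behind it in mLN (blue diamonds) and pLN (orange diamonds), all on the log2(RPKM + 1) scale of the horizontal axis. Genes run from the most positive, Cadm1 at 2.31, to the most negative, C7 at -2.06, and for most of them the orange diamond lies farther from 0 than the blue one.

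In 9 genes the level was lower in GF than in SPF pLN, and the housing difference in pLN was the larger one. C7, a component of the terminal complement complex (chromosome 15, 4988762 to 5063740, GRCm38), had the most negative interaction. C7 stood at 14.1, 32.8 and 23.5 RPKM in GF pLN and at 122, 123.5 and 125 RPKM in SPF pLN, whereas mLN held 107, 143 and 118 RPKM in GF and 138, 184 and 154 RPKM in SPF mice. Only the 3 GF pLN libraries were low, and the mLN groups overlapped. The SPF level was 5.26-fold the GF level in pLN and 1.29-fold in mLN, and the interaction was -2.06 ± 0.31 (adjusted p = 0.00893). Fbln1, encoding the matrix glycoprotein fibulin-1 (chromosome 15, 85205949 to 85286535), showed the same order at a higher level. Its values were 72.9, 99.0 and 72.1 RPKM in GF pLN, while the other 9 libraries lay between 181 and 230 RPKM. The interaction of Fbln1 was -1.37 ± 0.18 (adjusted p = 0.00311), with a 2.41-fold higher SPF level in pLN and a ratio of 0.935 in mLN.

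Gpnmb, which encodes a transmembrane glycoprotein of macrophages and mesenchymal cells (chromosome 6, 49036546 to 49070929), differed in which group stood apart. It was at 26.0, 21.8 and 24.6 RPKM in SPF pLN and between 9.27 and 11.8 RPKM in all 9 other libraries. Here the SPF pLN libraries were the high ones, and GF pLN lay at the level of mLN. The interaction of Gpnmb was -1.26 ± 0.17 (adjusted p = 0.00311). Itgbl1, a secreted protein with EGF-like repeats, had the same shape, with 16.1, 12.8 and 12.9 RPKM in SPF pLN and 3.81 to 7.35 RPKM elsewhere. Its interaction was -1.36 ± 0.22 (adjusted p = 0.0124), and the call was lost without replicate 3 of SPF mLN or of GF mLN, with an adjusted p of at most 0.0534. Col6a5, a collagen VI chain, was at 39.2, 29.0 and 34.8 RPKM in SPF pLN and at 13.1, 16.0 and 13.5 RPKM in GF pLN, and between 5.71 and 13.3 RPKM in mLN.

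The remaining genes of this pattern changed call when single libraries were left out. Has1, a hyaluronan synthase, was at 25.2, 68.4 and 47.3 RPKM in GF pLN, at 108, 114 and 111 RPKM in SPF pLN, at 195, 241 and 207 RPKM in GF mLN and at 154, 168 and 173 RPKM in SPF mLN. GF and SPF libraries did not overlap in either node, GF being the lower in pLN and the higher in mLN. The interaction of Has1 was -1.70 ± 0.34 (adjusted p = 0.0481). It passed only without replicate 1 or replicate 2 of GF pLN, and without each of the other 10 libraries it did not, with an adjusted p of up to 0.134. For Col6a5 (-1.58 ± 0.30, adjusted p = 0.0336) the call was kept without replicate 2 of GF mLN, SPF pLN or GF pLN and lost without any other library, at an adjusted p of up to 0.122. Lox, lysyl oxidase, which cross-links collagen and elastin, was at 41.7, 42.5 and 33.4 RPKM in SPF pLN and 18.8, 26.2 and 21.2 RPKM in GF pLN, with 30.2 to 37.6 RPKM in mLN. Its interaction of -0.98 ± 0.19 (adjusted p = 0.0480) was called without replicate 2 of SPF mLN or of GF pLN and lost without any other library, at up to 0.163. Lvrn, the aminopeptidase laeverin, was at 15.3, 15.3 and 15.2 RPKM in SPF pLN and 6.19, 9.03 and 7.87 RPKM in GF pLN, with 17.9 to 25.9 RPKM in mLN. The Lvrn interaction of -1.09 ± 0.20 (adjusted p = 0.0313) held without replicate 2 of SPF mLN, SPF pLN or GF pLN and was lost without any other library, at up to 0.112. Relt, a receptor of the tumour necrosis factor receptor superfamily, was nearly restricted to pLN. It was at 12.6, 13.1 and 12.7 RPKM in SPF pLN and 8.13, 5.84 and 6.74 RPKM in GF pLN, and at 0.361 to 0.920 RPKM in mLN, where 10 to 40 reads per library lay behind the values. The Relt interaction was -1.08 ± 0.18 (adjusted p = 0.0156), lost without replicate 1 or 3 of GF mLN or replicate 3 of SPF pLN (up to 0.0625). In a fit of the reads themselves (voom) it was -1.54 with an adjusted p of 0.148, so that the call depends on the scale.

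The CD34+ SC marker sum, of which Has1 is itself 1 gene, was also lower in GF than in SPF pLN. The sum without Has1 was 8575, 13286 and 9737 RPKM in GF pLN replicates 1, 2 and 3. C7, Has1, Itgbl1, Col6a5, Lox and Lvrn stood in the same order there, whereas Relt ran in the opposite order. Fbln1 (72.9, 99.0 and 72.1 RPKM) and Gpnmb (9.34, 11.8 and 9.27 RPKM) were also highest in replicate 2, with replicates 1 and 3 nearly equal. The sum was highest in SPF mLN, where Relt, Gpnmb, Itgbl1 and Col6a5 were low. The part of this shift in the 9 interactions was not tested.

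**Figure D3:**
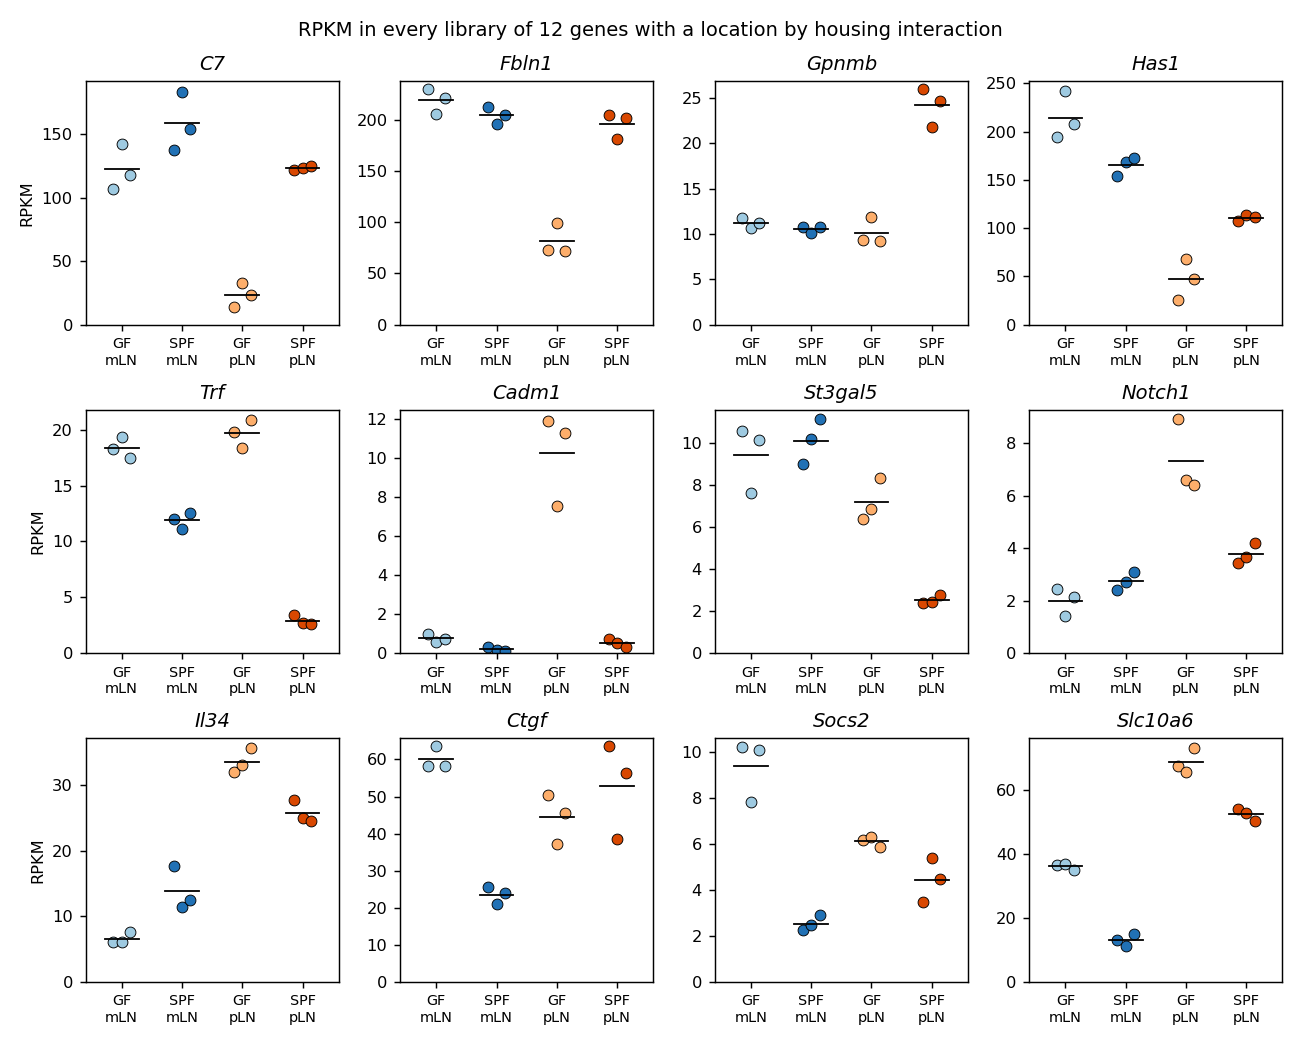
RPKM (vertical axis, from 0) of 12 genes in every library (points), by housing and node (horizontal axis), with group means as lines. C7, Fbln1 and Has1 are lowest in GF pLN, Gpnmb is highest in SPF pLN, Trf, Cadm1 and St3gal5 are lower in SPF than in GF pLN, and Ctgf and Socs2 are lowest in SPF mLN.

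In 9 other genes the housing difference was also the larger in pLN, but the level was higher in GF than in SPF mice there. Trf, the iron carrier transferrin (chromosome 9, 103204001 to 103230444), was at 19.8, 18.4 and 20.9 RPKM in GF pLN and at 3.41, 2.67 and 2.62 RPKM in SPF pLN. In mLN it was at 18.2, 19.3 and 17.5 RPKM in GF and 12.04, 11.1 and 12.6 RPKM in SPF mice. Trf was thus higher in GF mice in both nodes with no overlap, by 6.79-fold in pLN and 1.54-fold in mLN. Its interaction, 1.83 ± 0.16 (adjusted p = 7.14e-05), had the lowest adjusted p of all genes. A readthrough annotation shares 63.5% of the exon bases of Trf on the same strand, and its reads cannot be told from those of Trf.

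Cadm1, a homophilic adhesion molecule (chromosome 9, 47530173 to 47857637), had the largest interaction. Thy1, the gene of CD90, whose allele goes with housing here, lies on the same chromosome at 44043384 to 44048579. The part of that allele in the Cadm1 values was not tested. Cadm1 was at 11.9, 7.55 and 11.3 RPKM in GF pLN and below 1 RPKM in every other library, with 0.299 to 0.732 RPKM in SPF pLN. GF mLN held 0.599 to 0.973 RPKM and SPF mLN 0.142 to 0.297 RPKM, on 40 to 50 and 8 to 14 reads. The GF level was therefore 19.4-fold the SPF level in pLN and 3.80-fold in mLN. The interaction was 2.31 ± 0.22 (adjusted p = 0.000139), and 2.49 with an adjusted p of 0.148 in the fit of the reads. Fam107a, an actin-associated protein, was at 4.47, 3.98 and 3.77 RPKM in GF pLN and 0.934, 0.733 and 0.583 RPKM in SPF pLN, but had at most 10 reads in any mLN library. Its interaction of 1.35 ± 0.17 (adjusted p = 0.00199) came to 0.06 with an adjusted p of 0.987 in the fit of the reads, and the pseudocount of 1 sets how much of a proportional change such low mLN values can show. Spns3, of the spinster family of transporters, was in the same position, with 6.17 to 8.07 RPKM in GF pLN, 3.16 to 3.55 RPKM in SPF pLN and at most 7 reads in any mLN library. Its interaction was 0.90 ± 0.16 (adjusted p = 0.0256). In the fit of the reads the adjusted p was 0.752, and without 7 of the 12 libraries it rose to between 0.05 and 0.109.

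St3gal5, the synthase of the ganglioside GM3 (chromosome 6, 72097592 to 72154571), fell only in pLN. It was at 6.38, 6.85 and 8.33 RPKM in GF pLN and 2.39, 2.46 and 2.75 RPKM in SPF pLN, whereas the mLN groups overlapped between 7.63 and 11.1 RPKM. The interaction of St3gal5 was 1.30 ± 0.19 (adjusted p = 0.00893). Notch1, the receptor, was at 8.91, 6.60 and 6.41 RPKM in GF pLN and 3.45, 3.68 and 4.21 RPKM in SPF pLN, with overlapping mLN groups between 1.43 and 3.11 RPKM. Its interaction was 1.12 ± 0.21 (adjusted p = 0.0336), called without replicate 1 of GF mLN or replicate 2 of GF pLN and lost without any other library, at up to 0.124. Atp8a1, a phospholipid flippase, was at 6.94, 5.11 and 6.80 RPKM in GF pLN and at 2.64, 2.76 and 2.29 RPKM in SPF pLN, with 0.999 to 2.20 RPKM in mLN. The Atp8a1 interaction was 1.21 ± 0.21 (adjusted p = 0.0234), lost without replicate 3 of any group or replicate 1 of GF mLN or GF pLN, at up to 0.0842.

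Prr5, whose product is part of mTOR complex 2, was at 13.3, 15.7 and 11.9 RPKM in GF pLN and 4.60 to 5.60 RPKM in SPF pLN, and at 7.27 to 7.71 and 5.26 to 6.03 RPKM in GF and SPF mLN. It was the higher in GF mice in both nodes, and its interaction of 0.91 ± 0.17 (adjusted p = 0.0298) was kept only without replicate 2 of SPF pLN or replicates 2 or 3 of GF pLN, reaching 0.108 otherwise. The fit of the reads gave Prr5 1.05 with an adjusted p of 0.0555.

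In the other pattern the housing difference lay in mLN. Ctgf, now named Ccn2, a matricellular protein induced by mechanical tension (chromosome 10, 24595442 to 24598683), was at 25.5, 20.9 and 24.0 RPKM in SPF mLN and 58.2, 63.7 and 58.1 RPKM in GF mLN. The pLN groups overlapped, with 63.7, 38.5 and 56.4 RPKM in SPF and 50.4, 37.2 and 45.7 RPKM in GF mice. SPF mLN was thus the only low group, at 0.391 of the GF level, and the interaction was -1.54 ± 0.23 (adjusted p = 0.00989). An antisense annotation covers 23.2% of the exon bases of Ctgf, and the sources used here do not say whether the counting used strand. Socs2, a feedback inhibitor of growth hormone and cytokine signalling (chromosome 10, 95385362 to 95417180), was at 2.24, 2.45 and 2.89 RPKM in SPF mLN and 10.2, 7.81 and 10.1 RPKM in GF mLN. In pLN it was at 3.45, 5.36 and 4.46 RPKM in SPF and 6.16, 6.30 and 5.85 RPKM in GF mice. The GF level was the higher in both nodes, by 3.71-fold in mLN and 1.38-fold in pLN, and the interaction was -1.15 ± 0.20 (adjusted p = 0.0234). The Socs2 call was lost without replicate 1 of SPF mLN, replicate 1 or 3 of GF mLN, replicate 3 of SPF pLN or replicate 1 or 3 of GF pLN, at up to 0.0990.

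Slc10a6, a carrier of sulfated steroids (chromosome 5, 103605711 to 103629403), was at 12.9, 11.1 and 14.8 RPKM in SPF mLN and 36.5, 36.6 and 35.0 RPKM in GF mLN, and at 54.0, 52.6 and 50.3 RPKM in SPF pLN and 67.3, 65.6 and 73.0 RPKM in GF pLN. No 2 of the 4 groups overlapped. Its fall in SPF mice passed in both nodes (adjusted p = 3.87e-06 and 0.0425), and the interaction of -1.03 ± 0.16 (adjusted p = 0.0108) says that it was steeper in mLN. Cpz, carboxypeptidase Z of the matrix, was at 3.39 to 5.58 RPKM in SPF mLN and 8.63 to 14.9 RPKM in GF mLN, but at 60.2 to 76.3 and 63.9 to 67.4 RPKM in SPF and GF pLN. Its interaction of -1.41 ± 0.26 (adjusted p = 0.0298) held without replicate 1 of SPF mLN or replicate 2 of GF mLN, SPF pLN or GF pLN, and was lost without any other library, at up to 0.114. F2r, the thrombin receptor, was at 9.15 to 9.83 RPKM in SPF mLN and 12.5 to 13.99 RPKM in GF mLN, and at 7.16 to 7.73 and 5.45 to 6.05 RPKM in SPF and GF pLN. It fell with SPF housing in mLN and rose in pLN (adjusted p = 0.0156 and 0.0476), and its interaction of -0.79 ± 0.14 (adjusted p = 0.0298) held only without replicate 2 of GF mLN, replicate 1 or 2 of SPF pLN or replicate 2 of GF pLN, reaching 0.111 otherwise.

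A further 4 genes were higher in SPF than in GF mLN, with no called housing difference in pLN. The pLN groups did not overlap for Il34 and Sh3bp1, at a GF level of 1.30-fold and 1.26-fold the SPF level. Il34, a ligand of the macrophage growth factor receptor Csf1r (chromosome 8, 110741829 to 110805924), was at 17.6, 11.3 and 12.5 RPKM in SPF mLN and 6.12, 6.07 and 7.55 RPKM in GF mLN. In pLN it was at 27.8, 25.0 and 24.5 RPKM in SPF and 32.0, 33.0 and 35.7 RPKM in GF mice. Neither pair of groups overlapped, but only the rise in mLN passed the test (0.95 ± 0.14, adjusted p = 0.00116, against -0.37 ± 0.14, adjusted p = 0.114, in pLN). The interaction of Il34 was 1.32 ± 0.20 (adjusted p = 0.0108). Gstm7, a glutathione transferase, was at 3.74 to 4.55 RPKM in SPF mLN and 1.54 to 1.78 RPKM in GF mLN, and at 5.25 to 7.25 and 5.43 to 7.22 RPKM in SPF and GF pLN. Its interaction of 1.03 ± 0.19 (adjusted p = 0.0298) was lost without replicate 1 of any group or replicate 3 of SPF mLN or GF mLN, at up to 0.107, and reads of near-identical family members may be shared with it. In the fit of the reads the Gstm7 interaction was 1.41 with an adjusted p of 0.0948. Rem1, a small GTPase of the Rad and Gem family, was at 17.4 to 18.5 RPKM in SPF mLN and 9.15 to 10.7 RPKM in GF mLN, with 12.6 to 15.0 RPKM over all pLN libraries. The Rem1 interaction was 0.89 ± 0.15 (adjusted p = 0.0220), lost without replicate 1 or 3 of SPF mLN or GF mLN, replicate 3 of SPF pLN or replicate 1 of GF pLN, at up to 0.0828. Sh3bp1, a GTPase activating protein, was at 10.5 to 11.2 RPKM in SPF mLN and 6.56 to 7.96 RPKM in GF mLN, and at 5.44 to 6.96 and 7.08 to 8.31 RPKM in SPF and GF pLN. Its interaction of 0.85 ± 0.17 (adjusted p = 0.0480) held without replicate 1 of SPF pLN or replicate 2 of GF pLN only, reaching 0.156 otherwise, and 61.5% of its exon bases belong to a second annotation on the same strand as well.

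The same interaction can be read as a node difference that depends on housing. In 15 of the 27 genes the mLN minus pLN difference was the smaller in SPF mice, and in 12 it was the smaller in GF mice, while it was smaller in SPF mice for 50.9% of all genes tested. The split of the 27 is thus close to that of all genes. Examples of a larger difference in GF mice were C7 (2.40 in GF and 0.35 in SPF mice on the log2 scale), Fbln1 (1.43 and 0.06) and Cadm1 (-2.65 and -0.34). Trf (-0.10 in GF and 1.73 in SPF mice), Gpnmb (0.14 and -1.12) and Itgbl1 (-0.03 and -1.40) showed the reverse. Both comparisons share the libraries of the interaction and add no independent evidence to it.

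**Figure D4:**
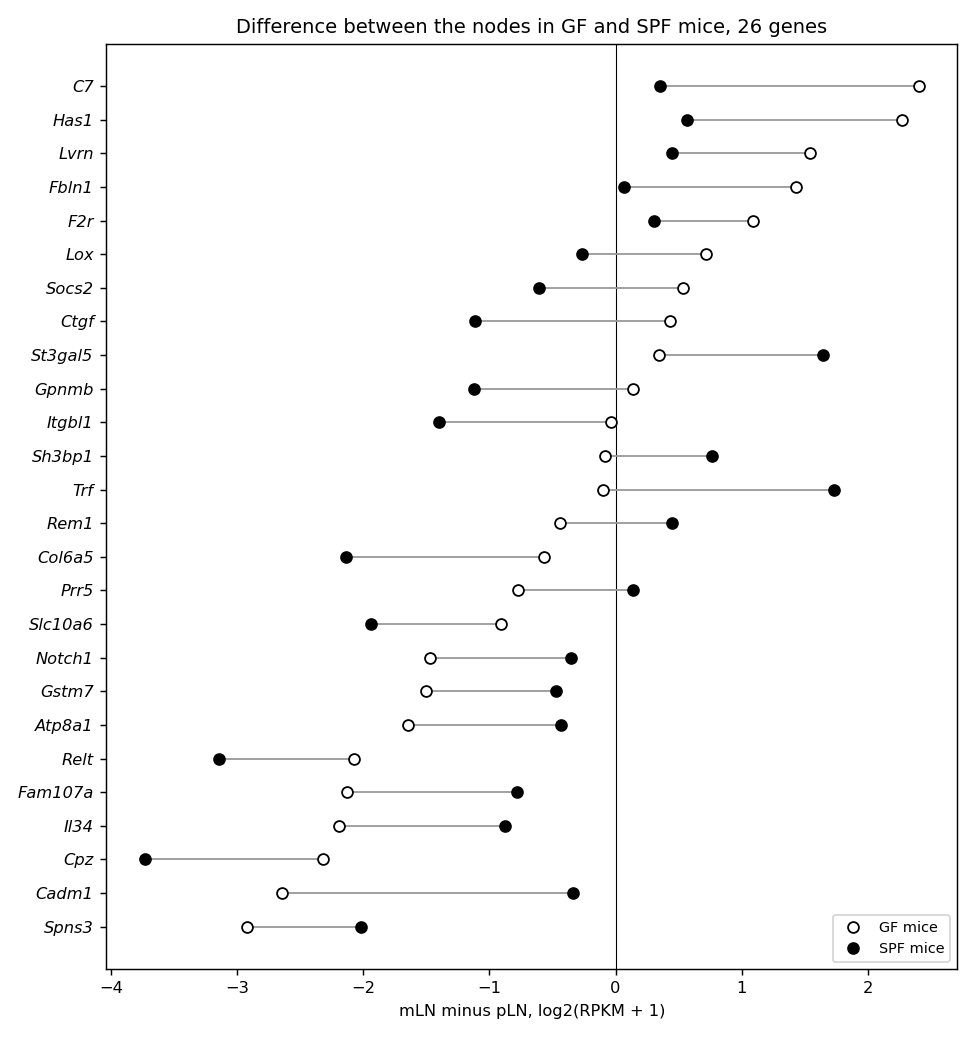
Difference between mLN and pLN on the log2(RPKM + 1) scale (horizontal axis) in GF mice (open points) and SPF mice (filled points) for 26 of the 27 genes, ordered by the GF value. C7 and Has1 lie at 2.40 and 2.27 in GF mice and at 0.35 and 0.57 in SPF mice, and Spns3 and Cadm1 are the most negative in GF mice.

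Of the genes with a searched motif in their promoter, 4 were picked by name to be shown. They are C7 and Has1, which were low in GF pLN, and Slc10a6 and Fam107a, which were lower in SPF than in GF mice in pLN. The others with a searched motif are named below without their sequence. Of the 27 genes, 17 matched an entry of the RefSeq promoter table (GRCm38.p6), which holds 250 bases before and 50 bases after each start. Of 6 motifs searched on both strands, capitals mark only the 1 named for each promoter. TTCNNNGAA, the spacing bound by STAT proteins, is in the promoters of C7 and Col6a5 and in 8.30% of all 32851 promoters. TGACGTCA, the full cAMP response element, is in that of Has1 and in 1.79% of all. The inverted repeat bound by the glucocorticoid receptor and its relatives is in those of Slc10a6 and Fam107a and in 0.475% of all. Of the 15 genes that fell in SPF mice in both nodes, 13 had a promoter entry, and none held this repeat. At so low a share, finding none in so few genes says nothing about them. No pair of these matches overlaps. Of the other motifs, TGANTCA is in the promoters of F2r and Gpnmb and in 7.81% of all, TATAAA in those of C7, where it is left in lower case, and Gstm7 and in 13.6% of all, and CACGTG in that of Fbln1 and in 7.15% of all.
C7: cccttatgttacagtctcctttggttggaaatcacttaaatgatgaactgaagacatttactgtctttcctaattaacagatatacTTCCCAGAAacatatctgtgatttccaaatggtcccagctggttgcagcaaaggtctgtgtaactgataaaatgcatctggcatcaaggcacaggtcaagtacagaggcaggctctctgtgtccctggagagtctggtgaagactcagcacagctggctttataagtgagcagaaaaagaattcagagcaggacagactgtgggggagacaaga
Has1: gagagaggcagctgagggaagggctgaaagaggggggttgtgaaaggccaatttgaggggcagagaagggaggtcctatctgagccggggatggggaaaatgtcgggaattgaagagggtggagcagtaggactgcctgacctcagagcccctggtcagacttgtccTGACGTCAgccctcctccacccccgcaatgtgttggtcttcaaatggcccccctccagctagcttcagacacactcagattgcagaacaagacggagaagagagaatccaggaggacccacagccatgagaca
Slc10a6: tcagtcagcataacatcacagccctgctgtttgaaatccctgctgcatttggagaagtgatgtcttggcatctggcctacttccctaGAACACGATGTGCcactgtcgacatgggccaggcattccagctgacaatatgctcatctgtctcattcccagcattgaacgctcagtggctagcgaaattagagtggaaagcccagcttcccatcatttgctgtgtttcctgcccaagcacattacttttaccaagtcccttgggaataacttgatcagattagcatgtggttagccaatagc
Fam107a: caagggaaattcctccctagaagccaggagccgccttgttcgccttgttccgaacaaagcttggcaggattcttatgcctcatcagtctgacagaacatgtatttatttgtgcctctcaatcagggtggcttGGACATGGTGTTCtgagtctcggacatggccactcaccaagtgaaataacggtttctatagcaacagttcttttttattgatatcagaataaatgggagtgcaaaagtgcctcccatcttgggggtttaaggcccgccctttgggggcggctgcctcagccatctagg
In GRCm38.p6 these are chr15:5063724-5064023, chr17:17855139-17855438, chr5:103629354-103629653 and chr14:8309730-8310029, all on the minus strand, and the Fam107a window starts from a transcript start inside the span of the gene. The matches begin 164, 83, 163 and 118 bases before the start, and a match describes the letters alone.

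Part of the strong housing response was shared between the nodes. By an adjusted p under 0.05 and a 2-fold change, 70 genes differed by housing in mLN (0.717%, with 0.236% higher and 0.482% lower in SPF mice) and 101 in pLN (1.04%, with 0.615% higher and 0.42% lower). Of these, 27 genes passed in both nodes, 38.6% of the mLN and 26.7% of the pLN calls, and in all 27 the direction was the same, 15 lower and 12 higher in SPF mice. None of these 27 passed the interaction test, and with both nodes of a housing and number as a block 3 did, Pdk4 (adjusted p = 0.00608), G530011O06Rik (adjusted p = 0.00770) and Oaf (adjusted p = 0.0457). At an unadjusted p under 0.05, 7 of the 27 differed between the nodes, and in the fit of the reads 1 passed, F3 (adjusted p = 0.0452), a gene named after its values were seen. The 2 housing differences have no library in common, but both were tested against 1 spread estimated from all 12 libraries. A gene with a small spread therefore passes more easily in both nodes, and passing in both favours genes that move alike. The pLN calls split into 60 higher and 41 lower in SPF mice, and into 77 and 31 after rescaling by the median ratio.

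The genes that fell most in both nodes included targets of glucocorticoids. Tsc22d3, encoding GILZ, averaged 29.7 RPKM in SPF and 136 RPKM in GF mLN, and 35.4 and 262 RPKM in SPF and GF pLN, with an interaction of 0.69 ± 0.18 (adjusted p = 0.158). Zbtb16 lies on chromosome 9 at 48654297 to 48836222, the chromosome of Cadm1 and Thy1. It averaged 2.28 and 11.3 RPKM in SPF and GF mLN and 1.14 and 10.5 RPKM in pLN, with an interaction of 0.57 ± 0.35. Pdk4, a brake on pyruvate oxidation, averaged 7.75 and 24.2 RPKM in mLN and 12.4 and 87.4 RPKM in pLN. Its interaction, 1.18 ± 0.30, had a 95% interval from 0.54 to 1.83 and an adjusted p of 0.158, so that a steeper fall in pLN was not called. Agtr2, an angiotensin receptor, and the long intergenic noncoding RNA gene Gm12505 completed the 5 lowest, with interactions of 0.42 ± 0.20 and 0.20 ± 0.26. Among the highest in SPF mice, F3, tissue factor, averaged 241 and 72.1 RPKM in SPF and GF mLN and 179 and 28.9 RPKM in pLN. F3 (-0.86 ± 0.18, adjusted p = 0.0639) and G530011O06Rik (-1.30 ± 0.26, adjusted p = 0.0555) rose more in pLN by size and stood just outside the threshold. The other 3 of the highest, Zhx2, Oaf and Serpine2, had interactions of 0.58 ± 0.16, 0.99 ± 0.37 and 0.23 ± 0.29. Zhx2 averaged 8.40 and 0.496 RPKM in SPF and GF mLN and 6.50 and 0.779 RPKM in SPF and GF pLN. For this difference, as for all others between SPF and GF mice, housing cannot be told apart from colony. Just inside the threshold was Has1, and just outside it, beside G530011O06Rik, were the gap junction gene Gja1 (-1.13) and the receptor Mertk (1.199), both with an adjusted p of 0.0555.

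**Figure D5:**
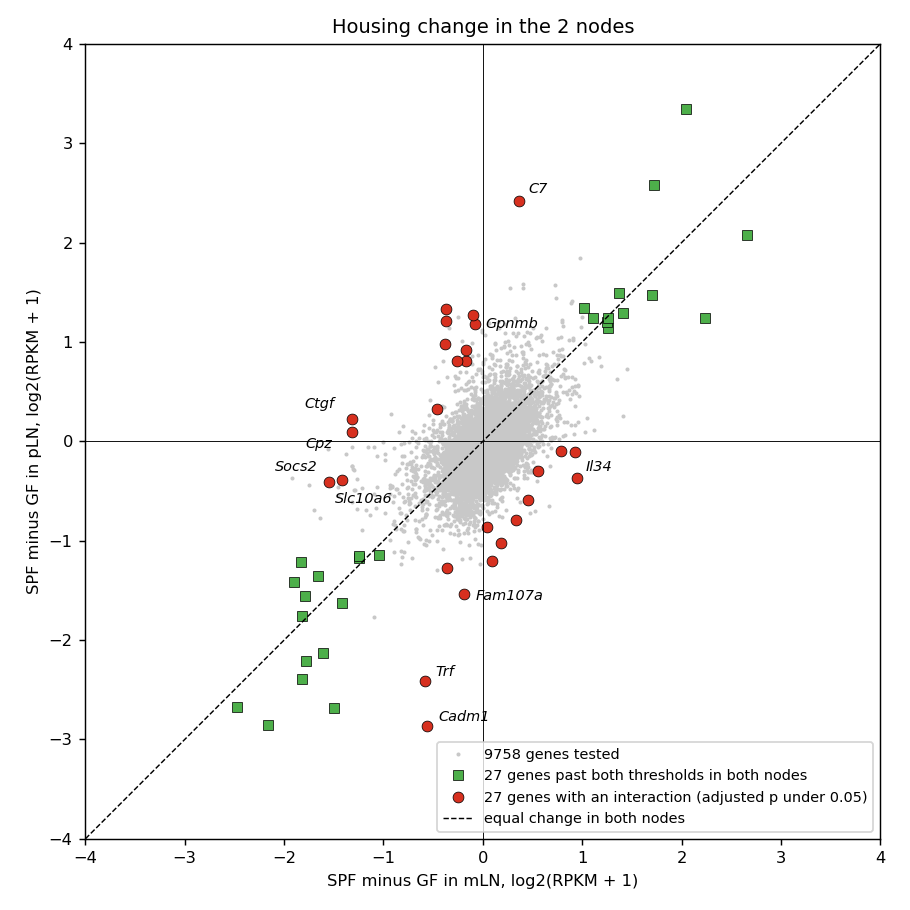
SPF minus GF difference in mLN (horizontal axis) against that in pLN (vertical axis), both on the log2(RPKM + 1) scale, for 9758 genes (grey). The 27 genes called by housing in both nodes (green squares) have the same sign on both axes, and for 20 of the 27 genes with an interaction (red circles) the signs differ.

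Read by gene lists, the interaction gave 5 calls in 4 lists, since Has1, C7, Ctgf and the pair Lox and Fbln1 were the only listed genes that passed. With both nodes of a housing and number as a block, the elastic fibre, proteoglycan and matricellular list gave 5 calls, all negative. The complement and BMP lists gave 2 each, also negative. The CD34+ SC, perivascular, sorted stroma, immediate early, WNT, IGF and limb and body-wall lists gave 1 negative call each. The lists of glucocorticoid targets (Pdk4), prostanoid genes (Ptgir) and fibrillar and other collagens (Col12a1) gave 1 positive call each. The interferon, ribosomal, respiratory chain and T zone FRC lists gave 0. Over all genes tested, 2.48% rose and 2.06% fell in SPF mLN, and 4.02% rose and 6.74% fell in SPF pLN, by the adjusted p alone. Of 16 glucocorticoid targets tested, 11 fell and 1 rose in SPF mice in each node, and 0 had an interaction in the reported fit. Their median interaction was 0.04, beside 0.08 over all genes, and -0.06 after rescaling by the median ratio. At an unadjusted p under 0.05, 5 of these 16 differed, 3 positive and 2 negative, beside 9.62% of all genes, and voom called 0. Of 37 interferon response genes, 6 rose and 0 fell in SPF mLN, and 4 rose and 2 fell in SPF pLN. The interferon list had a median interaction of 0.36, and 34 of its 37 genes were above 0, beside 63.0% of all genes. None of them passed, the nearest being Isg15, an ubiquitin-like antiviral protein (0.94, adjusted p = 0.116), while 10 had an unadjusted p under 0.05 and voom called 0.

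All 55 cytosolic ribosomal protein genes had a positive interaction, with a median of 0.42. In pLN 38 of them fell and 0 rose in SPF mice (26 passed after rescaling by the median ratio), in mLN 0 passed in either direction, and 0 passed the interaction test, although 23 had an unadjusted p under 0.05 and voom called 0. Their summed level was 7219 to 9196 RPKM in GF pLN and 4223 to 6132 RPKM in the 9 other libraries. The 67 respiratory chain genes had a median interaction of 0.28, with 19 lower in SPF pLN, 7 after rescaling, and 0 called in mLN. Of the 67, 0 passed the interaction test, 8 had an unadjusted p under 0.05, close to the share of all genes, and voom called 0.

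Among lists of matrix and subset genes, the medians were below 0. The 34 elastic fibre, proteoglycan and matricellular genes had a median interaction of -0.24, with 2 called, both negative. In SPF mice 4 of them rose and 2 fell in mLN, and 8 rose and 4 fell in pLN. The 19 CD34+ SC markers had a median of -0.23 with 1 called, Has1, and a median housing difference of 0.44 in pLN and 0.19 in mLN. The 15 T zone FRC markers had a median of -0.44 and 0 called, 6 at an unadjusted p under 0.05 and 0 by voom, and 4 of them fell in SPF mLN. Of 16 complement and acute phase genes, C7 alone was called, and of 25 immediate early genes, Ctgf alone. The 23 genes of BMP signalling, Id factors and their antagonists had a median of -0.32. In SPF mice 5 of them rose and 2 fell in mLN, and 7 rose and 1 fell in pLN. None passed the interaction test, 10 had an unadjusted p under 0.05, 9 of them negative, and voom called 0. All 7 homeostatic lymphoid chemokines tested had a negative interaction, with a median of -0.41, 0 called, 1 at an unadjusted p under 0.05 and 0 by voom. The list medians kept their sign after rescaling and in the fit of the reads for these lists of matrix, subset, ribosomal and interferon genes.

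None of the 16 genes around which the study is built passed the interaction test, although 3 had an unadjusted p under 0.05, voom called 0, and with both nodes of a housing and number as a block Thy1 passed (adjusted p = 0.00568). Nkx2-3, a homeobox factor of visceral mesenchyme, was at 33.8 to 41.6 RPKM in SPF mLN and 21.9 to 24.9 RPKM in GF mLN and below 0.2 RPKM in pLN, with an interaction of 0.69 ± 0.16 (adjusted p = 0.108). Aldh1a2, an enzyme of retinoic acid synthesis, was at 24.5 to 57.0 RPKM in SPF mLN and 6.68 to 24.0 RPKM in GF mLN. In pLN it was at most 0.375 RPKM. The mean SPF level was 2.63-fold the GF level in mLN and 2.95-fold in pLN. The 95% interval of its interaction ran from 0.17 to 2.15 (adjusted p = 0.447). The pseudocount of 1 limits how much of a proportional change the low pLN values of Nkx2-3 and Aldh1a2 can show. Thy1, the gene of CD90, was at 14.005 to 20.5 RPKM in GF mLN and 3.501 to 8.04 RPKM in the 9 other libraries, with an interaction of -1.48 ± 0.33 (adjusted p = 0.0903). Irf1 rose in SPF mice in both nodes, with an interaction of 0.08 and an interval from -0.33 to 0.50. The intervals of Ccl19 (-1.52 to 0.09) and Il6 (-1.64 to 0.02) left room for a difference of over 2-fold in 1 direction.

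Finally, 6 genes could not be compared between groups and were set aside. RPKM of whole reads are multiples of the value of 1 read, and for Acad10, Eno1, Hbb-b1, Ndufa13, Taf9 and Mtcp1 that value differed between groups, whereas it was shared for every other gene. Ndufa13 was at 49.1 to 69.2 RPKM in SPF mLN and 0.626 to 2.72 RPKM elsewhere, with 1 read worth 0.574 of its value in the other groups. Eno1 was at 40.9 to 53.9 RPKM in SPF pLN and 4.55 to 7.67 RPKM elsewhere, with a ratio of 0.867. With these genes kept, 29 genes passed instead of 27. Mtcp1 was at 1.56 to 4.56 RPKM in the SPF and 0.221 to 0.526 RPKM in the GF libraries of both nodes. These levels are given as listed and were not tested.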

How the data were processed

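Total RNA of sorted SCs was amplified with a template-switching kit and sequenced as 50 bp single reads. The authors aligned the reads to GRCm38 with TopHat2 (1.2.0) and counted them with HTSeq (0.12.4), and deposited RPKM per gene with columns of their own DESeq2 comparisons, log2 fold changes and adjusted p-values, which were not used. The deposited table lists 10253 genes, of which 18 had symbols turned into dates. Whole reads were recovered for 100% of genes (tolerance 1e-09) from the value of 1 read. A fit of these reads (voom) called 26 genes. Precision is set by 3 libraries per group.

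The interaction, the difference of both SPF minus GF differences, was fitted to log2(RPKM + 1) with limma (3.58.1, R 4.3.3) over 4 group means, with 8 residual degrees of freedom, and p-values were adjusted over 9758 genes with at least 1 RPKM in at least 3 libraries. The design counted 9764 genes. The 6 genes on 2 read scales were left out after the data were seen. Calls used an adjusted p under 0.05, alone or with a 2-fold change. The genes named are the 12 most positive and 12 most negative among those called (Sh3bp1 and F2r were added after their values were seen, and 1 called gene is counted but not reported here), the 5 highest and 5 lowest by mean housing difference among genes called in both nodes, up to 4 called genes per list and 16 genes of the study. Alternatives were other pseudocounts, filters and scalings, trend and robust moderation, voom on the recovered reads, a replicate block over all groups or within a housing, and leaving out libraries. Members and lists were chosen with earlier results of these data known. The fit was also run on simulated reads, with the same dispersion for all genes, independent libraries and planted interactions only in genes of higher level. These settings differ from the data, and no call here rests on that run. Positions are from GENCODE M21, or RefSeq for Ctgf.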

Additional observations from a re-analysis of the deposited data

Results flagged for a closer look

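The 26 genes below, of the 27 called, stood out because the effect of housing differed between the nodes, by the test of that difference (limma, adjusted p under 0.05, 3 libraries per group). Values are interactions on the log2(RPKM + 1) scale. The positive ones were Cadm1 (2.31), Trf (1.83), Fam107a (1.35), Il34 (1.32), St3gal5 (1.30), Atp8a1 (1.21), Notch1 (1.12), Gstm7 (1.03), Prr5 (0.91), Spns3 (0.90), Rem1 (0.89) and Sh3bp1 (0.85). The negative ones were F2r (-0.79), Lox (-0.98), Slc10a6 (-1.03), Relt (-1.08), Lvrn (-1.09), Socs2 (-1.15), Gpnmb (-1.26), Itgbl1 (-1.36), Fbln1 (-1.37), Cpz (-1.41), Ctgf (-1.54), Col6a5 (-1.58), Has1 (-1.70) and C7 (-2.06). With 3 libraries per group, no library was tested for standing apart.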

How the results depend on the processing

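Across 23 other settings none of the 27 interactions changed sign, 8 genes kept an adjusted p under 0.05 in all, and 10 kept it without any single library. Leaving out 1 library at a time gave 10 to 36 genes past both thresholds (21 as reported), 10 to 56 past the adjusted p alone (27 as reported), 61 to 99 for housing in mLN (70) and 92 to 140 for housing in pLN (101). The size threshold moved with the pseudocount, as its construction implies: with 5, 8 genes passed both thresholds for the interaction, 34 for housing in mLN and 39 in pLN, and with 0.1 housing gave 144 genes in mLN and 170 in pLN. The fit of the recovered reads gave 125 and 171 for housing in mLN and pLN. For these, beyond the pseudocount, the cause was not tested. Of the 27 genes, 24 remained after rescaling by the median ratio and 21 in the fit of the reads. Fam107a, Spns3, Cadm1, Relt, Gstm7 and Prr5 lost the call in the fit of the reads.

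With a replicate block 30 genes passed the adjusted p, 25 of them among the 27. The labels do not say what a replicate number marks. Over all groups, 6 of 18 same-numbered pairs correlated over 0.1 in their deviations from group means, with a median of 0.0099 against 0.0232 for other pairs, and 3 of 12 libraries correlated best with their own number. Within a housing, 5 of 6 same-numbered mLN and pLN pairs correlated over 0.1 (0.0801 to 0.457). Pairs of other numbers ran from -0.385 to 0.304. Of these, only SPF mLN replicate 1 with SPF pLN replicate 3 (0.304) and SPF mLN replicate 3 with SPF pLN replicate 1 (0.210) were over 0.1. The labels give no shared origin, and the reported fit does not use the same-numbered pairs. With such a pair as the block, 74 genes passed the adjusted p and 41 both thresholds, and all 27 kept the call. Without both SPF libraries numbered 2, 32 genes passed. The fits with these pairs as the block and with the genes on 2 read scales were chosen after seeing the data.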
